A study of Mus musculus with 4 samples.

Results

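The 86 rows described here are the genes whose symbol has the form of a cytosolic ribosomal protein gene (Rpl or Rps followed by a number, the stalk genes Rplp0 to Rplp2, and Rpsa). They were taken by symbol from 21878 rows, without the pseudogene rows. No measured value entered the rule, though earlier results of these data were known when it was chosen. Of the 86 rows, 85 are ribosomal protein genes, 53 of the large subunit and 32 of the small subunit. The remaining row is Rps6kl1, a gene named after the kinase of ribosomal protein S6, and it is reported on its own at the end.

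RNA was sequenced from mouse liver progenitor-like cells, a culture state that adult liver cells enter in transition and expansion media. There were 2 libraries of cells grown out of hepatocytes (HepLPC) and 2 of cells that came from the non-parenchymal cells of the liver (NPC_LPC). The labels give C57BL/6 mice aged 6 to 8 weeks, and the protocol gives an age of 8 weeks. The protocol describes lineage-tracing mice. It lists tdTomato mice with AAV8-TBG-Cre, a virus whose TBG promoter is directed to hepatocytes, for the hepatocytes, and AlbCreERT/R26GFP mice, in which the albumin promoter drives an inducible Cre, for the non-parenchymal cells. With mice as in that list, the effects of line, virus and cell origin cannot be told apart. The cell type label of HepLPC mentions hepatocytes and non-parenchymal cells together, so the library titles set the groups. The labels do not say whether replicates came from separate mice or cultures, and p-values then measure only the spread between these libraries, which may be technical.

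Ribosomal proteins and ribosomal RNA form the small subunit, which reads the mRNA, and the large subunit, which joins amino acids. Their mRNAs are short and abundant, and most begin with a terminal oligopyrimidine (TOP) tract, a C at the cap followed by a run of C and T, through which mTORC1 and the RNA-binding protein Larp1 control their translation. Growing cells are known to make ribosomes at a high rate, and regenerating liver is a classic setting for this. Several ribosomal proteins also have a like copy (paralog) used in particular tissues.

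The TOP tract is shown because it is a sequence feature of the members that the choice by symbol did not use. The RefSeq promoter table (GRCm38.p6, 250 bases before to 50 after the annotated start) held 65 of the 85 genes. A gene was counted for a feature if any of its entries there had it. A C at an annotated start followed by C or T through at least 5 bases in all was found in 14 of the 65, or 21.5%, against 3.01% of all 27018 genes in the table. Of these, 8 members with tracts of 8 to 13 bases are printed here from 30 bases before the annotated start to the 20th base from it, 5′ to 3′ on the coding strand, with the tract in capitals.
Rps6 (chr4:86857348-86857397, minus strand): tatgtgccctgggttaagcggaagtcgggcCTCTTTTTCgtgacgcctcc
Rpl15 (chr14:18270967-18271016, minus strand): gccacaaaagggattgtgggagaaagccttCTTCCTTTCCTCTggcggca
Rps18 (chr17:33955646-33955695, minus strand): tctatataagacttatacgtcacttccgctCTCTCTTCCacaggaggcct
Rps10 (chr17:27635225-27635274, minus strand): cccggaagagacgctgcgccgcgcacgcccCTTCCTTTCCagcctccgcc
Rpl28 (chr7:4792935-4792984, plus strand): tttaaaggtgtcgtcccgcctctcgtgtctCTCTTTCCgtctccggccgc
Rpl35 (chr2:39005112-39005161, minus strand): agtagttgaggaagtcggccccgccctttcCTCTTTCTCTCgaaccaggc
Rpl35a (chr16:33056452-33056501, plus strand): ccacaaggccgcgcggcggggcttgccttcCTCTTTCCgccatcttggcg
Rpl38 (chr11:114668550-114668599, plus strand): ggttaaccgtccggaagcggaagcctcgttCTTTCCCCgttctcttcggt
The tract is read at the annotated first base, and a start site a few bases off leaves a tract uncounted. The printed starts of Rpl38 (114668580) and Rpl35a (33056482) lie after the first base of the gene, at 114667818 and 33056453.

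Other short motifs were searched over the whole window of 300 bases. CTTTCC on the coding strand, which can lie inside a TOP tract as in Rpl28, was found for 40% of the members and 16% of all genes. CCGGAAG on either strand, the core letters bound by Ets factors, was in 40% against 9.93%. AAGATGG on either strand, the core letters of YY1 sites, was in 15.4% against 7.28%, and the GC box GGGCGG on either strand in 61.5% against 38.2%. TATAAA on the coding strand was about as frequent in the members (10.8%) as in all genes (9.77%). These are letter matches and no measure of binding.

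Total counts per library ran from 17575998 to 20625957. Markers were checked against the labelled cells first. Alb, the defining gene of mature hepatocytes, was near 0, at 2.28 and 0.113 CPM (counts relative to the library total and its TMM factor) in HepLPC and 0.11 and 0.149 CPM in NPC_LPC. The summed level of 8 hepatocyte genes, mostly Apob, was 4427 and 5232 CPM in HepLPC against 3177 and 1724 CPM in NPC_LPC, while Cps1 and Serpina1a had at most 4 counts in any library. Hnf4a, the hepatocyte transcription factor, was at 235 and 249 CPM against 27.4 and 49.9 CPM. The 5 bile duct and progenitor genes summed to 4673 and 2073 CPM against 9312 and 4578 CPM, and their members went both ways. Spp1 was at 3026 and 905 CPM against 8944 and 4203 CPM, while Krt19 was at 1435 and 885 against 111 and 275 CPM and Krt7 at 103 and 166 against 1.43 and 17.2 CPM. The 7 stellate and fibroblast genes, nearly all Fbln2, summed to 539 and 683 CPM against 2581 and 3685 CPM, with Lrat at 0 in all 4 libraries. The 5 leukocyte genes, mostly Cd68, summed to 24.9 and 15.2 CPM against 81.6 and 21.4 CPM, with Clec4f at 0. Ptprc had at most 5 counts in any library. Csf1r was higher in HepLPC, at 3.06 and 1.86 against 1.76 and 0.793 CPM. The 5 endothelial genes summed to at most 7.17 CPM. The 4 mesothelial genes, nearly all Msln, summed to 199 and 789 CPM against 579 and 232 CPM. Of the others, Upk3b had 15 and 48 counts against 6 and 0, and Wt1 had 3 and 13 against 93 and 14. The part of these genes' source cells in the results below was not tested. In bulk RNA, fewer cells of a type and less RNA per cell cannot be told apart.

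The first comparison asks whether cells of the 2 origins differ in ribosomal protein mRNA. Together the 85 genes took 3.67% and 4.49% of all counts in HepLPC replicates 1 and 2, and 2.81% and 3.15% in NPC_LPC replicates 1 and 2. Both HepLPC libraries lay above both NPC_LPC libraries. The means were 4.08% ± 0.579 and 2.98% ± 0.235 (SD, n = 2 each), a ratio of 1.37, and the exact permutation test (two-sided) gave p = 0.333, the smallest that 2 against 2 libraries can give. Counting error is far smaller than this spread: the exact (Clopper-Pearson) 95% interval for HepLPC replicate 1 ran from 3.661% to 3.678%. As a share of summed FPKM (fragments scaled to transcript length and library size), which weights short transcripts more, the genes took 14.1% and 15.7% in HepLPC and 11.4% and 12.4% in NPC_LPC.

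**Figure D1:**
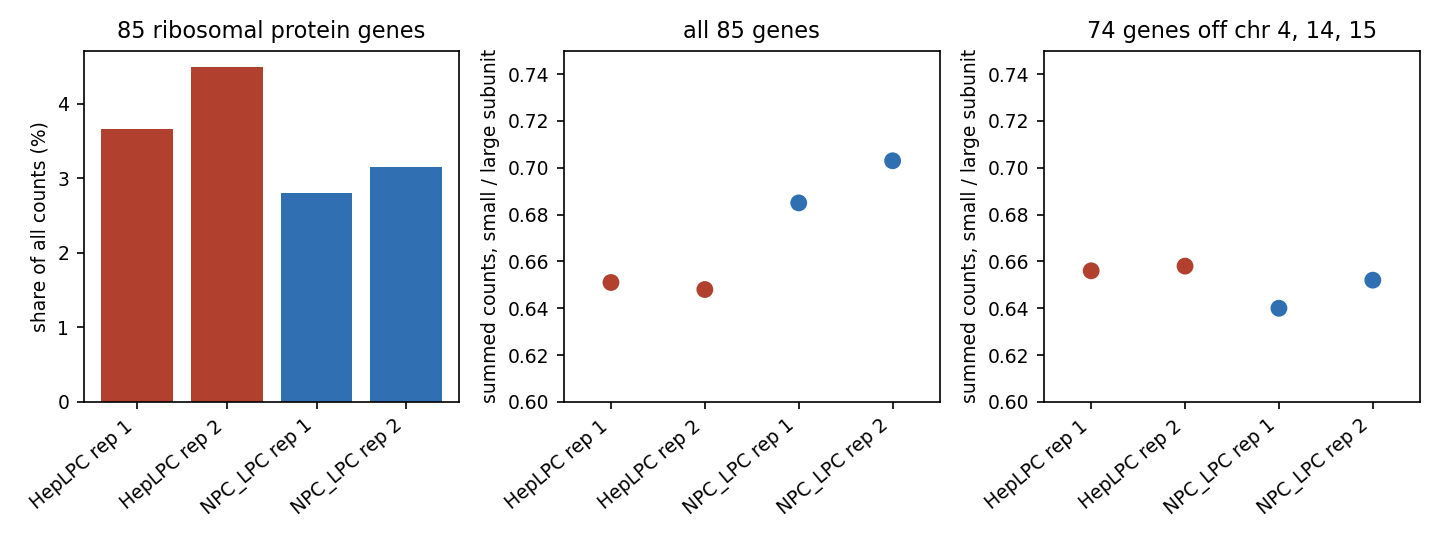
Left, share of all counts (%) taken by the 85 ribosomal protein genes in each library (bars, 1 value per library), from 2.81% to 4.49%. Middle and right, summed counts of small subunit genes over large subunit genes in each library (points, axis from 0.6 to 0.75), for all 85 genes and for the 74 genes off chromosomes 4, 14 and 15, where the order of the groups turns.

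Counts allowed a test of 81 of the 85 genes, each with at least 220 counts in every library. None of the 81 passed the threshold in edgeR's quasi-likelihood test (adjusted p under 0.05), where 0.43% of the 12332 tested genes did, and limma-voom called none of the 81 either. At an unadjusted p under 0.05 there were 14 members (17.3%), all higher in HepLPC, against 10.4% of all tested genes in that direction. DESeq2 called 6 members, or 7.41%, all higher in HepLPC: Rpl8, Rpl30, Rpl36al, Rps26, Rpl37 and Rpl9. For all tested genes DESeq2 called 5.81% higher and 12.3% in either direction, so the members' share was near the background.

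The members' fold changes were small and lay mostly on one side. The log2 fold change (HepLPC over NPC_LPC, edgeR) was above 0 in 76 of the 81 genes, against 49.8% of all tested genes. Its median was 0.42 (1.34-fold), with the middle 50% of members between 0.32 and 0.57, and the median over all tested genes was -0.00. In 62 members (76.5%) both HepLPC libraries exceeded both NPC_LPC libraries in CPM, where 27.9% of all tested genes did so. In 1 member, Rpl22, both were lower, against 28.6% of all tested genes, and in 18 members the groups overlapped. The median SE of a member's log2 fold change was 0.26, which is of the order of the changes themselves. Members share libraries and their levels vary together, so the 81 genes are not 81 independent observations.

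**Figure D2:**
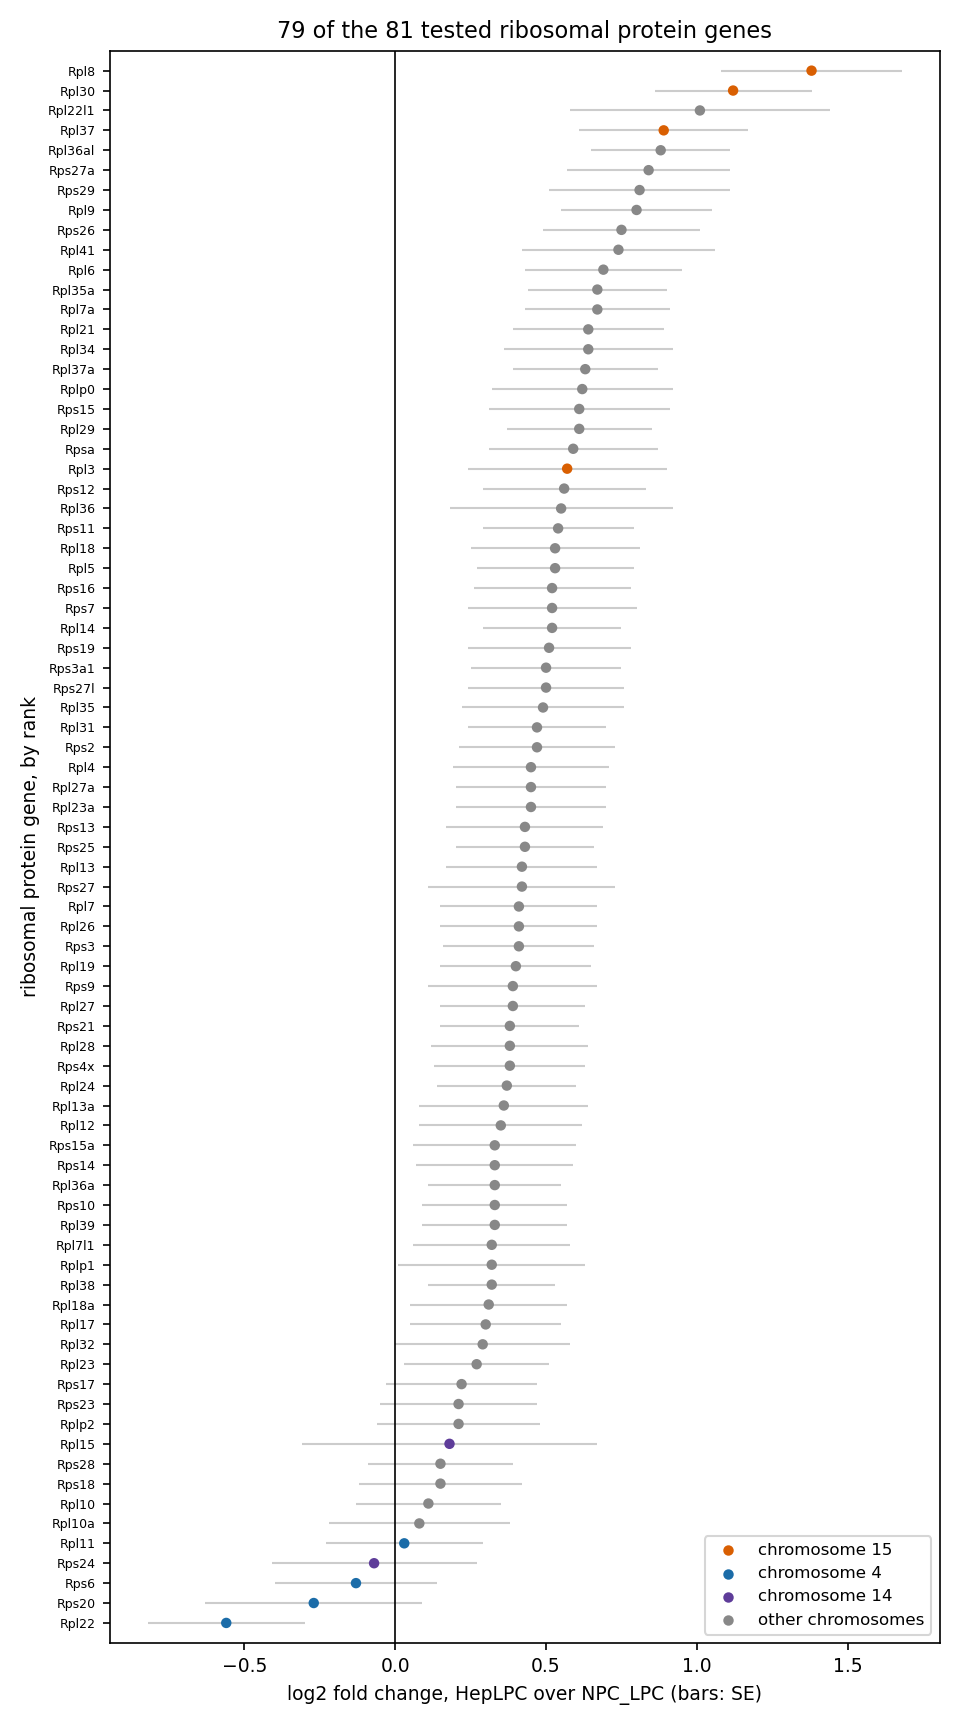
Log2 fold change (HepLPC over NPC_LPC, horizontal axis) of 79 of the 81 tested ribosomal protein genes, ordered by value, with bars of 1 SE from edgeR and colours for chromosomes 4, 14 and 15. The values run from -0.56 (Rpl22) to 1.38 (Rpl8), and the 4 drawn below 0 are all on chromosomes 4 and 14.

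Replicates differed as well. HepLPC replicate 2 was above replicate 1 in 70 of the 81 members, with a median ratio of 1.21 between them, and NPC_LPC replicate 2 was above replicate 1 in 76, with a median ratio of 1.18. Over all tested genes those median ratios were 1 and 1.03. The widest gap was in Rpl15, a large subunit protein, at 130 and 364 CPM in the HepLPC libraries (a ratio of 2.81) and 198 and 238 CPM in NPC_LPC. The ordering of the groups thus held in most members across a spread between replicates that itself had a direction.

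The highest fold changes belonged to genes of chromosome 15. Rpl8 (chr15:76904071-76906318), a large subunit protein close to the catalytic centre, was at 669 and 925 CPM in HepLPC and 269 and 342 CPM in NPC_LPC. Its log2 fold change was 1.38 ± 0.30 (SE, n = 2 per group), the highest of all members, with an edgeR adjusted p of 0.0928, also the smallest. Rpl30 (chr15:34440505-34443276), a large subunit protein, was at 501 and 643 CPM against 253 and 273 CPM, a log2 fold change of 1.12 ± 0.26 (edgeR adjusted p = 0.102). Rpl37 (chr15:5116613-5119140) was at 260 and 378 CPM against 164 and 180 CPM (log2 fold change 0.89 ± 0.28, edgeR adjusted p = 0.158). In these genes the groups were well apart, with the lowest HepLPC library above the highest NPC_LPC library. The other chromosome 15 member, Rpl3, which also reaches the catalytic centre, was at 821 and 1354 CPM against 675 and 794 CPM (log2 fold change 0.57 ± 0.33, or 0.16 without HepLPC replicate 2), so its HepLPC replicate 1 lay just above the NPC_LPC libraries.

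Among the 5 highest, the other members were the paralogs Rpl22l1 and Rpl36al, described with their partners below. Next in order was Rps27a, which encodes a ribosomal protein fused to ubiquitin, at 176 and 201 CPM in HepLPC and 123 and 87.6 CPM in NPC_LPC (log2 fold change 0.84 ± 0.27). Its 2 groups did not overlap.

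The lowest fold changes belonged to genes of chromosomes 4 and 14. Rpl22 (chr4:152324436-152334082), a large subunit protein that is not essential for translation but is needed by developing T cells, was at 86.3 and 111 CPM in HepLPC and 130 and 161 CPM in NPC_LPC. Its log2 fold change was -0.56 ± 0.26 (edgeR adjusted p = 0.269). Rps20 was at 81.6 and 156 CPM against 131 and 157 CPM (log2 fold change -0.27 ± 0.36). Rps6 (chr4:86854099-86857367), the substrate of the S6 kinases, was at 760 and 959 CPM against 903 and 978 CPM (-0.13 ± 0.27 on the log2 scale). In Rps20 and Rps6 the groups overlapped, and the low value was that of HepLPC replicate 1. Rps24, on chromosome 14, was at 695 and 1078 CPM against 774 and 1090 CPM (log2 fold change -0.07 ± 0.34). Without HepLPC replicate 1 the log2 fold change turned positive in Rps20 (0.14), Rps6 (0.04) and Rps24 (0.22). Without NPC_LPC replicate 2 it was also positive in Rps24 (0.19).

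The members thus followed the other genes of their chromosomes. The other tested genes had a median log2 fold change of 0.64 on chromosome 15 (489 genes), -0.62 on chromosome 4 (756 genes) and -0.43 on chromosome 14 (407 genes), while on the other chromosomes that hold members it lay between -0.14 and 0.17. The members' medians were 1.01 on chromosome 15 (4 genes), -0.13 on chromosome 4 (5 genes) and 0.05 on chromosome 14 (2 genes). The 70 members on other chromosomes had a median of 0.43. All 70 were above 0, which follows from setting chromosomes 4 and 14 aside, where all 5 members below 0 lie. This split was chosen after seeing the data. Across the 19 chromosomes with members, the medians of members and of other genes had a Pearson r of 0.92 and a Spearman rho of 0.81, and without chromosomes 4, 14 and 15 (n = 16) of 0.78 and 0.68. Chromosomes are not replicates, and the points share the 4 libraries.

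**Figure D3:**
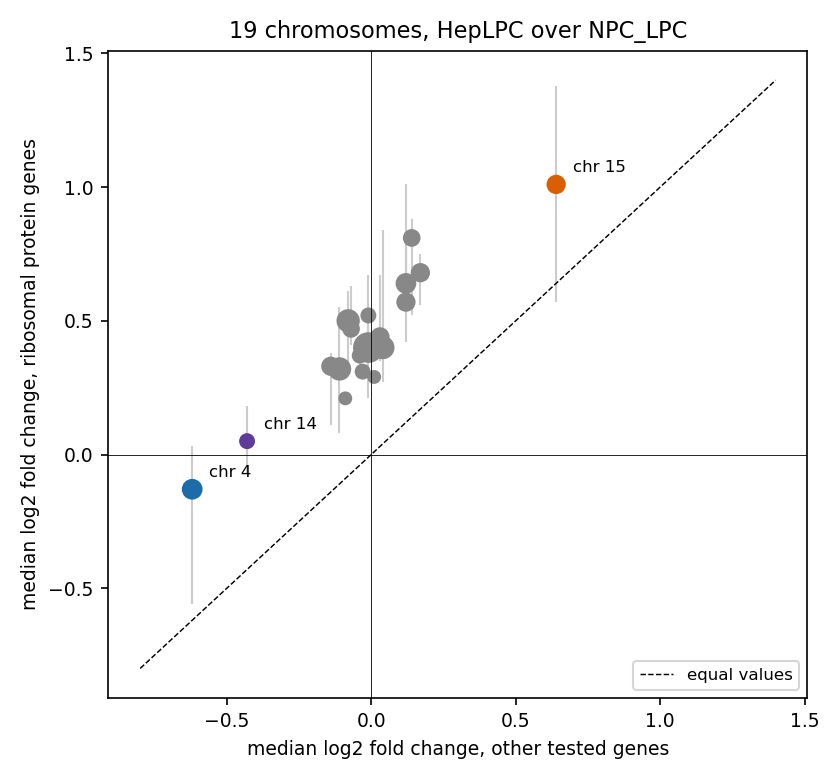
Median log2 fold change (HepLPC over NPC_LPC) of the ribosomal protein genes on each of 19 chromosomes (vertical axis) against that of the other tested genes on the chromosome (horizontal axis). Point size grows with the number of members, bars run from the lowest to the highest member, and every point lies above the dashed line of equal values, from chromosome 4 (-0.62, -0.13) to chromosome 15 (0.64, 1.01).

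Against the median of the other genes on the same chromosome, the members were higher by a median of 0.45 on the log2 scale, and 80 of 81 were above it. The exception was Rpl3 at -0.08. Rpl22, the lowest member, was at 0.06 by this measure. The SD over the members was 0.29 for the log2 fold change and 0.17 for the difference from the chromosome. The shift on chromosome 14 and much of that on chromosome 4 came with 1 library: centred on each gene's mean, the other genes of chromosome 14 had a median log2 CPM of -0.53 in HepLPC replicate 1 and 0.10 in HepLPC replicate 2, and those of chromosome 4 of -0.48 and -0.08. On chromosome 15 both HepLPC libraries were high, at 0.21 and 0.47, and both NPC_LPC libraries low, at -0.34 and -0.27. What these chromosome-wide shifts stand for was not tested.

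They also bear on the balance of the subunits. The small subunit genes' summed counts were 0.651 and 0.648 of the large subunit genes' in HepLPC and 0.685 and 0.703 in NPC_LPC, a difference in means of -0.0444 (exact permutation test, two-sided, p = 0.333, the smallest possible with n = 2 each). Without the 11 members on chromosomes 4, 14 and 15 the order turned, with ratios of 0.656 and 0.658 in HepLPC and 0.640 and 0.652 in NPC_LPC and a difference of 0.0105. Chromosome 15 holds only large subunit members, and chromosome 4 holds 3 small subunit members among its 5. The median log2 fold change was 0.45 over the 49 tested large subunit genes (48 above 0) and 0.41 over the 32 small subunit genes (28 above 0). The summed share of all members kept its ratio without those chromosomes, at 1.39.

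Length moved with the result too. The members' mRNAs had a median length of 780 bases against 2981 for the other tested genes, and 57 members were at most 1000 bases long. Among the other genes the median log2 fold change went from 0.39 for mRNAs up to 600 bases through 0.31, 0.23, 0.16, 0.05, -0.04 and -0.18 to -0.34 for those over 6000 bases. The 619 other genes of at most 1000 bases had a median of 0.33, with 415 above 0, and those among them at 50 CPM or more had a median of 0.41, with 111 of 143 above 0. Within their own length bins the members exceeded the other genes by a median of 0.16, and 61 of 81 were above. With length taken from the ratio of counts to FPKM that median was 0.09, with 52 of 81 above. The members' own median was 0.42. Lists of longer mRNAs, described below, went different ways. The ribosome biogenesis genes (median length 2911 bases) had a median of 0.66, and the initiation factors (2600.5 bases) 0.51. The chaperones of ribosomal proteins (3251 bases) had 0.09, and the p53 targets (3287 bases) -0.01. The part of length in the members' shift was not tested further.

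**Figure D4:**
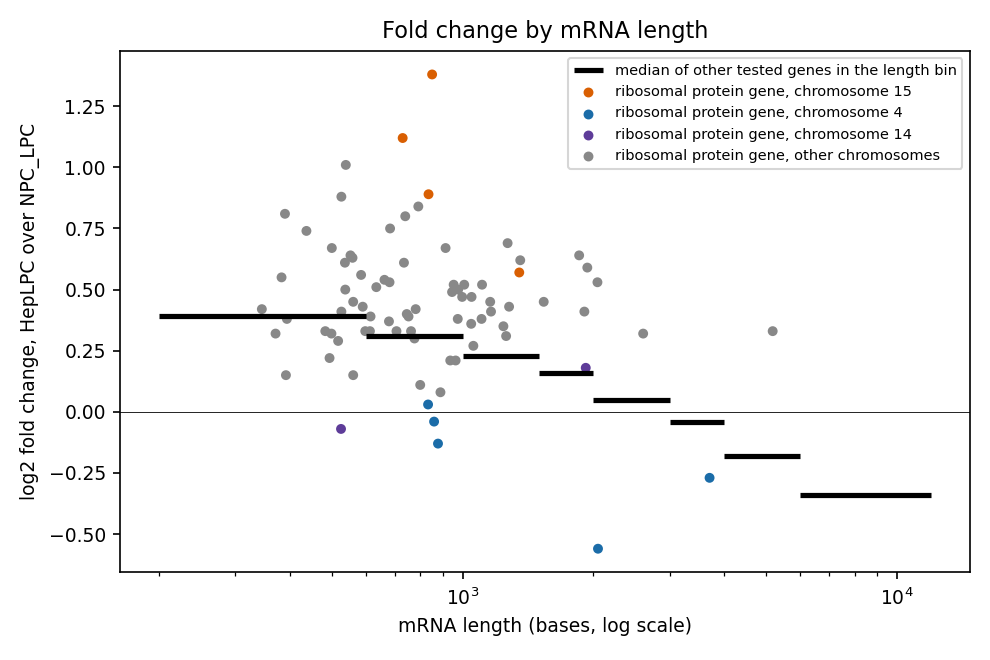
Log2 fold change (HepLPC over NPC_LPC) of the 81 tested ribosomal protein genes against mRNA length in bases on a log scale (points, coloured by chromosome), with the median of the other tested genes in each of 8 length bins (black lines, with the open ends drawn to an arbitrary length). The lines go down from 0.39 to -0.34, and the median member stands 0.16 above the line of its bin.

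By libraries, the centred log2 CPM of the members had medians of 0.12 and 0.34 in HepLPC and -0.32 and -0.10 in NPC_LPC. The other genes of at most 1000 bases had medians of 0.01 and 0.30 against -0.15 and -0.14, and those over 4000 bases of 0.00 and -0.22 against 0.13 and 0.12. HepLPC replicate 2 was thus the library with the highest short and the lowest long mRNAs, and also the one with the largest ribosomal protein share.

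Functional groups of the ribosome had median log2 fold changes from 0.28 (Rpl5 and Rpl11, which bind 5S rRNA) to 0.57 (the 3 genes near the catalytic centre), and differences between groups were not tested. The stalk genes Rplp0, Rplp1, Rplp2 and Rpl12, whose proteins recruit translation factors, had a median log2 fold change of 0.33 with 4 of 4 above 0. Rplp0 was at 1434 and 2029 CPM against 1050 and 1198 CPM (log2 fold change 0.62 ± 0.30, or 0.35 without HepLPC replicate 2), Rpl12 at 0.35, Rplp1 at 0.32 and Rplp2 at 0.21, and in Rplp1 and Rplp2 the groups overlapped. Of the 3 genes near the catalytic centre, Rpl8 and Rpl3 are described above, and Rpl10 was at 292 and 351 CPM against 279 and 316 CPM (log2 fold change 0.11 ± 0.24). Without HepLPC replicate 2 the log2 fold changes of Rplp1 and Rpl10 were -0.03 each. All 8 genes at the exit tunnel (Rpl4, Rpl17, Rpl19, Rpl23a, Rpl26, Rpl31, Rpl35 and Rpl39) had groups that did not overlap, with HepLPC higher and a median of 0.43, where 76.5% of all members and 27.9% of all tested genes were apart in that direction. Rpl4, for one, was at 2087 and 2164 CPM in HepLPC and 1518 and 1584 CPM in NPC_LPC.

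In the small subunit, the 6 genes along the mRNA channel (Rps2, Rps3, Rps9, Rps14, Rps26 and Rps28) had a median log2 fold change of 0.40, with 6 of 6 above 0. In 5 of them (83.3%) the groups were apart with HepLPC higher, near the 76.5% of all members and above the 27.9% of all tested genes. Rps26, at the mRNA exit, was at 1012 and 1192 CPM against 645 and 663 CPM (log2 fold change 0.75 ± 0.26, edgeR adjusted p = 0.179, DESeq2 adjusted p = 0.0314). Rps14, of the same group, was at 225 and 288 CPM against 186 and 221 CPM (0.33 ± 0.26 on the log2 scale). Rpl5 and Rpl11, which with 5S rRNA bind Mdm2, were at log2 fold changes of 0.53 ± 0.26 and 0.03 ± 0.26, and Rpl11 lies on chromosome 4. The value of Rpl11 was -0.13 without HepLPC replicate 2 and -0.09 without NPC_LPC replicate 1, and that of Rps28 (0.15) was -0.04 without HepLPC replicate 2. Rpl13a, known for a role outside the ribosome in inflammatory translation control, was at 654 and 916 CPM against 630 and 594 CPM (0.36 ± 0.28 on the log2 scale).

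Among 9 genes whose loss of a copy causes Diamond-Blackfan anaemia in people, 8 were above 0 and 7 (77.8%) had groups apart, close to the 76.5% of all members and above the 27.9% of all tested genes, with a median of 0.51. Rps19, the gene most often affected, was at 127 and 181 CPM against 99.1 and 117 CPM (log2 fold change 0.51 ± 0.27, or 0.23 without HepLPC replicate 2). Rpl35a was at 95.7 and 104 CPM against 56.6 and 68.6 CPM (0.67 ± 0.23 on the log2 scale). The member of this list below 0 was Rps24.

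Paralogs were compared with their canonical partners in the 4 pairs with counts for both genes. Their coding sequences matched their partners' at 70.2% of aligned bases for Rpl22 and Rpl22l1, 87.7% for Rpl36a and Rpl36al, 76.2% for Rps27 and Rps27l, and 62.6% for Rpl7 and Rpl7l1. Levels of partners were compared in FPKM, which is per length. Rpl22 was at 16 and 24.8 FPKM in HepLPC and 24.7 and 33.9 FPKM in NPC_LPC. Rpl22l1, whose mRNA is known to be held down by Rpl22 protein, was at 30.5 and 57.6 FPKM in HepLPC and 21.8 and 18.6 FPKM in NPC_LPC. In FPKM the copy was above its partner in both HepLPC libraries and below it in both NPC_LPC libraries. That crossing rests on the length behind the FPKM, which for Rpl22 was 2.44 times the annotated mRNA length and for Rpl22l1 1.17 times. Rpl22l1 made up 65.7% and 69.9% of the pair in HepLPC and 46.8% and 35.4% in NPC_LPC, a difference of 26.7 percentage points between means of 67.8% ± 3.01 and 41.1% ± 8.08 (SD, n = 2 each). The exact permutation test (two-sided) gave p = 0.333, the smallest possible, and 0.444 after adjustment over 4 pairs. Rpl22 lies on chromosome 4, whose other genes were lower in HepLPC, and Rpl22l1 on chromosome 3, whose other genes had a median of 0.12. In counts per annotated mRNA base, a measure chosen after seeing the data, Rpl22l1 was 46.1% and 55.2% of the pair in HepLPC and 32.7% and 20.5% in NPC_LPC, so it was below its partner in HepLPC replicate 1, and the difference between the groups was 24.1 points. In summed counts, which favour the longer Rpl22 mRNA, its share was 18.3% and 24.5% against 11.3% and 6.33%. The higher share in HepLPC was thus common to the 3 measures, and the crossing was not.

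Rpl36al was at 372 and 434 FPKM in HepLPC and 212 and 225 FPKM in NPC_LPC, next to Rpl36a at 634 and 614 against 493 and 514 FPKM. Its share of the pair was 36.9% and 41.4% in HepLPC and 30.1% and 30.5% in NPC_LPC, a difference of 8.94 points (exact permutation p = 0.333, adjusted 0.444). The log2 fold change in counts was 0.88 ± 0.23 for Rpl36al (edgeR adjusted p = 0.117, DESeq2 adjusted p = 0.0165) and 0.33 ± 0.22 for Rpl36a. Both groups of libraries stood apart in both genes.

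The other expressed pairs were close in both groups of cells. Rps27l, known as a p53 target, made up 15.7% and 8.8% of its pair with Rps27 in HepLPC and 9.98% and 12.1% in NPC_LPC, so the groups overlapped (difference 1.2 points, exact permutation p = 1). Without HepLPC replicate 1 that difference was -2.26 points. In summed counts Rps27l was 60.6% and 49.9% of the pair against 52.5% and 53.9%. Rpl7l1, which acts in ribosome assembly, made up 2.6% and 2.88% of its pair with Rpl7 in HepLPC and 2.94% and 3.01% in NPC_LPC, a difference of -0.235 points (exact permutation p = 0.333, adjusted 0.444), which was -0.0974 without HepLPC replicate 1 and -0.372 without HepLPC replicate 2. With 2 libraries a group, no interval of these differences is given beyond the values themselves.

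**Figure D5:**
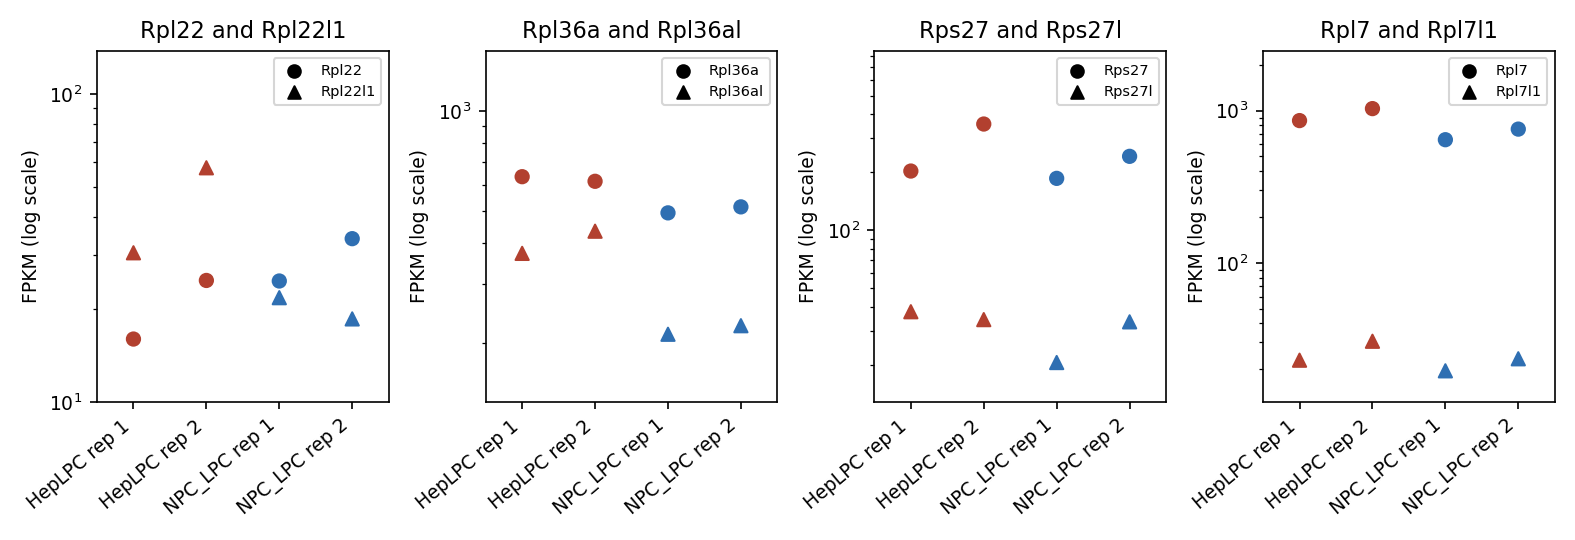
FPKM on a log scale (vertical axes, each panel with its own range) of 4 canonical genes (circles) and their paralogs (triangles) in each library, HepLPC in red and NPC_LPC in blue. In FPKM Rpl22l1 lies above Rpl22 in both HepLPC libraries (30.5 against 16 and 57.6 against 24.8) and below it in both NPC_LPC libraries, whereas per annotated base it is 46.1% of the pair in HepLPC replicate 1.

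The 4 members without a test had few or no counts. Rpl10l and Rpl39l, paralogs known from the testis, had 0 counts in all 4 libraries, which allows up to 0.171 CPM (3 counts) in the shallowest library. Rpl3l, known from heart and skeletal muscle, had 3 and 2 counts in HepLPC and 0 in both NPC_LPC libraries. Rpl32l had 2 and 1 counts against 1 and 0. No fold change is given for these.

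In level, the members spanned a wide range. Mean FPKM over the 4 libraries had a median of 429, and 73 members were at 100 FPKM or more. The highest were Rps26 (2944 FPKM), Rpl41 (2335), Rpl35 (1760), Rps2 (1656) and Rps12 (1386). Rps26 was at 3421 and 4063 FPKM in HepLPC and 2096 and 2196 FPKM in NPC_LPC, above every other member in mean FPKM. That rank rests on the length behind the FPKM. For Rps26 this length was 0.434 times the annotated mRNA length, and for Rpl41 0.76 times. Rpl41, the smallest of the ribosomal proteins, was at 2126 and 3674 against 1765 and 1777 FPKM. The values of Rpl41 and Rpl35 overlap those of their neighbours in this order, since Rpl35 was at 2107 and 1981 FPKM in HepLPC. The lowest tested members were Rpl7l1 (24.1 FPKM) and Rpl22 (24.8).

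FPKM depends on the transcript length that was used. The length implied by count and FPKM over the annotated mRNA length had a median of 0.996 in the members, and it was farthest from 1 in Rps24 (6.43), Rps27l (4.64), Rpl36 (4.4), Rps16 (0.355) and Rpl35 (0.36). The FPKM levels of these genes are correspondingly uncertain, as are those of Rps26 (0.434) and Rps12 (0.534), named above among the highest. So are the levels of the pair shares that rest on Rps27l or on Rpl22 (2.44). Per annotated base Rps27l was 49.7% and 39% of its pair in HepLPC and 41.5% and 42.9% in NPC_LPC. Members also have many near copies in the genome: 78 of the 84 with an annotated coding sequence had at least 1 other annotated gene that matched at 95% or more over at least 80% of it, with a median of 5 and up to 57 for Rpl21. How the authors' counting treated reads that fit several places is not given in the sources used here. The 17 tested members with 10 or more copies had a median log2 fold change of 0.47, and the 4 with none, among them Rpl8 and Rps27l, of 0.45.

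Members with a TOP tract read at an annotated start did not have a larger median difference than those without one. The 13 tested members with such a start, among them the printed Rps6, Rpl15, Rps18, Rps10, Rpl28, Rpl35, Rpl35a and Rpl38, had a median log2 fold change of 0.33, and the 48 without had 0.45. Of the printed genes Rpl35a was the highest (0.67) and Rps6 the lowest (-0.13). The 267 other tested genes with a TOP start had a median of -0.02, against -0.01 without. The 20 tested members with no promoter entry, among them Rpl8 and Rpl30, are in neither group. A tract goes uncounted where the annotated start is a few bases off. The members without a counted tract can therefore include TOP mRNAs, and the comparison cannot show whether TOP mRNAs differ from others.

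Genes around the ribosome were followed in lists, to be read against 10.4% of all tested genes that were higher in HepLPC at an unadjusted p under 0.05 and 5.81% that DESeq2 called higher. The 26 tested TOP genes outside the choice by symbol, such as translation elongation factors, had a median log2 fold change of 0.48 with 23 above 0, and edgeR called none of them (9 at an unadjusted p under 0.05, DESeq2 7). Eef1a1, the elongation factor that brings aminoacyl-tRNA, was at 11107 and 12380 CPM against 9458 and 10478 CPM (log2 fold change 0.24 ± 0.30), and Eef2, the translocase, at 4028 and 4654 against 3425 and 4087 CPM (0.21 ± 0.29). Of 29 initiation factors 27 were above 0 with a median of 0.51 and none was called by edgeR (9 at an unadjusted p under 0.05, DESeq2 4). The 2 most abundant, Eif3a and Eif4g2, were at log2 fold changes of 0.19 ± 0.32 and 0.21 ± 0.28, and that of Eif3a was -0.06 without NPC_LPC replicate 2.

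The 53 ribosome biogenesis genes had a median of 0.66, with 49 above 0, 20 higher at an unadjusted p under 0.05, none called by edgeR and 10 by DESeq2. Their order among libraries was not that of the ribosomal proteins. They summed to 14540 and 9252 CPM in HepLPC and 5980 and 7236 CPM in NPC_LPC, highest in HepLPC replicate 1, where the ribosomal protein share was highest in HepLPC replicate 2. Ncl (nucleolin) was at 5537 and 2650 CPM in HepLPC and 1659 and 2059 CPM in NPC_LPC (log2 fold change 1.14 ± 0.43, or 0.53 without HepLPC replicate 1), and Mybbp1a, a nucleolar protein, at 917 and 600 against 339 and 369 CPM (1.10 ± 0.30). The 17 cell cycle genes, all above 0 with a median of 0.77 (8 at an unadjusted p under 0.05, none called by edgeR, DESeq2 2), had a like order in HepLPC, with sums of 4041 and 2638 CPM against 1449 and 2560 CPM. Among them Top2a was at 662 and 385 CPM against 206 and 457 CPM and Mki67 at 837 and 381 against 344 and 617 CPM, so the groups overlapped in both. Without HepLPC replicate 1 the log2 fold change of Mki67 went from 0.34 to -0.32, and without NPC_LPC replicate 1 to -0.00.

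The 77 mitochondrial ribosomal protein genes, which serve a separate ribosome, also lay above 0 in the main. Of them 73 were above 0, with a median of 0.51, 60 (77.9%) had groups apart with HepLPC higher against 27.9% of all tested genes, 20 passed an unadjusted p of 0.05, none was called by edgeR and 5 by DESeq2, which is near the DESeq2 background. Their sums were 3099 and 3217 CPM in HepLPC and 2056 and 2203 CPM in NPC_LPC. Mrpl12 was at 213 and 141 CPM against 78.4 and 79.6 CPM (log2 fold change 1.16 ± 0.28), and Mrpl39 at 94.5 and 80.9 against 68.4 and 78.1 CPM (0.26 ± 0.23). A shift of this size was therefore not seen in the cytosolic ribosomal proteins alone, and no test of the difference between the lists was made.

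Regulators were more evenly spread. The 29 regulators of TOP mRNAs and mTORC1 had a median log2 fold change of 0.22, with 18 above 0, no call by edgeR (7 higher and 2 lower at an unadjusted p under 0.05), and 4 higher and 1 lower by DESeq2. Larp1 was at 547 and 278 CPM in HepLPC and 302 and 354 CPM in NPC_LPC (log2 fold change 0.33 ± 0.37), high in HepLPC replicate 1 alone, and its value was -0.22 without that library. Cnbp, which binds TOP mRNAs, was at 337 and 343 CPM against 199 and 214 CPM (0.72 ± 0.23). The 13 chaperones and importers of ribosomal proteins had a median of 0.09 with 7 above 0 (edgeR none, 1 at an unadjusted p under 0.05, DESeq2 1), among them the importins Kpnb1 (0.39 ± 0.28) and Ipo5 (-0.43 ± 0.32, or -0.01 without NPC_LPC replicate 2). The 12 p53 targets had a median of -0.01 with 6 above 0 (edgeR none, 1 lower at an unadjusted p under 0.05, DESeq2 1 lower), with Cdkn1a at 0.24 ± 0.28 and Ccng1 at -0.23 ± 0.26.

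Interferon response genes, which limit translation during infection, were the list that differed most. All 12 tested were lower in HepLPC, at a median of -5.78 on the log2 scale, and summed to 59.2 and 76.1 CPM in HepLPC against 378 and 1821 CPM in NPC_LPC. Oas3, which makes the activator of RNase L, was called by edgeR (4 counts in each HepLPC library against 362 and 1548, log2 fold change -7.71 ± 0.90, adjusted p = 0.0466). Without either HepLPC library edgeR called none of the 12, and without NPC_LPC replicate 1 all 12. NPC_LPC replicate 2 had the higher interferon sum and also the higher ribosomal protein share of its group. The part of the interferon response in the ribosomal protein values was not tested.

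Rps6kl1 (chromosome 12), a kinase-like gene that the choice by symbol took in, is no ribosomal protein. It had 11 and 67 counts in HepLPC and 2 and 2 counts in NPC_LPC. The fitted log2 fold change was 4.31 ± 1.22 (edgeR adjusted p = 0.138, DESeq2 adjusted p = 0.0387), and with so few counts in NPC_LPC it depends on the prior count. It was 2.48 without HepLPC replicate 2 and 5.10 without HepLPC replicate 1. Its HepLPC libraries differed about as widely from each other as the lower of them did from NPC_LPC.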

How the data were processed

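Per the labels' protocols, mRNA was read from both ends after a stranded poly(A) library kit. The submitters' processing notes name HISAT2, HTSeq, Cufflinks, Trimmomatic and DESeq, and mm10 as the build, with no roles. Their versions, the annotation and the strand setting are not given in the sources read here. Per the file headers, the authors deposited a whole-number read count for each gene and an FPKM value, which is scaled to transcript length and library size.

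The main test was edgeR's quasi-likelihood F test, version 4.0.16 (R 4.3.3, TMM, filterByExpr, 12332 genes kept, group as the only term), with Benjamini-Hochberg adjustment over all of them and a threshold of 0.05. The fit was also run on simulated counts with known changes, and the outcome of that run is not reported here. SEs come from the F statistic. DESeq2 1.42.0, limma-voom and limma 3.58.1 on log2 FPKM, other scalings and filters, the replicate number as a block and leaving out each library were alternatives. Shares and pair shares were tested with exact permutation tests. Groups and replicate numbers came from library titles. Total counts of 17575998 to 20625957 limit the precision only for genes near 0. Intervals and floors cover counting error only, since PCR reads without molecular identifiers are not independent molecules.

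Lengths (median of RefSeq-matched transcripts), copies and coding identity came from GENCODE, and positions and promoters from RefSeq, all on GRCm38, the assembly called mm10. A protein comparison was planned, and coding sequences were compared in its place. Members and lists were chosen with earlier results of these data known. Genes were named by rule: the 5 highest and 5 lowest by fold change and the 5 highest by FPKM, members with few counts, functional groups, chromosome 15, the 5 farthest from their annotated length, 4 well known members, and of each list the called or the 2 most abundant genes. Results of 2 members are not reported here by name. Rpl15 and some others were chosen after their values were seen.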

Additional observations from a re-analysis of the deposited data

How the results depend on the processing

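The members' median log2 fold change stayed between 0.41 and 0.44 under the other scalings, filters and tests, and between 0.33 and 0.56 when each library was left out. It was 0.16 as a difference from other genes of the same length bin. The length bins were planned, and setting their difference beside the median, the chromosome splits and the pair shares per annotated base were chosen after seeing the data. No member was called under any setting run but DESeq2, which called 6. Over all tested genes, the deviations of same-numbered libraries from their group means had a correlation of -0.0169. A shift common to the genes drops out of this value, so it cannot show whether same-numbered libraries belong together. With the replicate block the median was 0.42 and 0 members were called. Without the members on chromosomes 4, 14 and 15 the difference in the ratio of small to large subunit counts went from -0.0444 to 0.0105. The Rps27l pair difference ran from -2.26 to 4.66 points over the left-out libraries. Rpl11 was at -0.05 in the 3 fits on log2 FPKM. Leaving out each library gave log2 fold changes from -0.82 to 0.14 for Rps20, -0.31 to 0.04 for Rps6, -0.42 to 0.22 for Rps24, -0.13 to 0.18 for Rpl11, -0.03 to 0.25 for Rpl10, -0.03 to 0.61 for Rplp1, -0.04 to 0.33 for Rps28, -0.22 to 0.74 for Larp1, -0.06 to 0.51 for Eif3a and -0.32 to 0.82 for Mki67. With no filter but 1 count, edgeR called 1 TOP gene outside the choice by symbol, 4 biogenesis genes, 1 initiation factor, 1 mitochondrial ribosomal protein, 1 cell cycle gene and 12 interferon genes. DESeq2 called 7, 10, 4, 5, 2 and 12 of these lists, 5 TOP and mTORC1 regulators, 1 chaperone and 1 p53 target. Of the interferon genes 0 were called by limma-voom and by limma on log2(FPKM + 1) with no filter, 2 on log2(FPKM + 0.1), 8 with the replicate block, and 0 to 12 when each library was left out. The cause of these moves was not tested. With 2 libraries a group no exact test can go below 0.333, and depth limits only the genes near 0 counts.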
